A study of Mus musculus with 6 samples.

Results

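The translation factor genes were taken as every gene whose symbol begins with Eif1, Eif2, Eif3, Eif4, Eif5, Eef1 or Eef2. Symbols that begin with Eif2ak, Eif4ebp, Eef1akmt or Eef2k were left out, since those genes encode kinases, inhibitors and methyltransferases and not the factors themselves. The rule gave 54 of the 17463 genes in the tables, and it used no measured value. They were grouped by the step or complex in which their products work. Of the 54 genes, 52 passed the filter on low counts and were tested, and Eef1a2 and Eif4e1b did not pass.

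The cells were fetal liver erythroblasts of C57BL/6J mice, purified as TER119-negative cells, that is, before they carry the surface protein TER119 of maturing erythroid cells. They were kept in medium with erythropoietin (Epo), the cytokine of terminal erythropoiesis. In the cholesterol group, 3 samples received 40 µM cholesterol for 30 h, and the 3 control samples received none, so strain, tissue, purification and Epo medium were common to both groups. The study's methods add that TER119+ cells were sorted before RNA extraction, and elsewhere the study describes the controls as vehicle-treated where the labels say untreated. The samples are numbered 1 to 3 in each group, and a legend of the study speaks of independent experiments for the set of panels that includes these data. No source used here ties the sample numbers to experiments, litters or cultures, so every p-value measures only the spread between these samples, part of which may be technical. The comparison asks which transcripts differ in level when erythroblasts mature with added cholesterol.

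Translation starts when eIF2, carrying the initiator tRNA, joins the small ribosomal subunit together with eIF1, eIF1A, eIF5 and the large scaffold eIF3. The cap-binding complex eIF4F brings the mRNA, and eIF2B recharges eIF2 with GTP after each round. During elongation eEF1A delivers aminoacyl-tRNA to the ribosome and eEF2 moves the ribosome along the mRNA. Erythroblasts make very large amounts of globin, and the heme-sensing kinase of eIF2, encoded by Eif2ak1, matches that synthesis to the supply of heme. Many mRNAs of the translation machinery begin with a run of pyrimidines, the terminal oligopyrimidine tract, through which their own translation depends on mTOR signalling.

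The sequence around the annotated transcription start is shown for 6 genes on which the results turn. Eif3f was the gene called in the paired comparison, Eef1a1 and Eef2 had the highest levels, Eif2s3x and Eif2s3y are the X- and Y-linked copies of the same eIF2 subunit, and Eif3l is a second eIF3 subunit with a long pyrimidine run. Each line runs 5′ to 3′ on the strand of the gene, from 10 bases before the start through the 20 bases from the start on, and capitals mark the longest run of T and C in that window. The sequences and coordinates are those of RefSeq on GRCm38.p6, the build named in the submitters' processing notes.
Eif3f, chr7:108934405-108934434, plus strand: tctaggCTCTCTCTCTTTCTCggcaagatg
Eif3l, chr15:79075213-79075242, plus strand: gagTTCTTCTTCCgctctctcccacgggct
Eef1a1, chr9:78481705-78481734, minus strand: ctccgCCCTCTTCCCgagggtgggggagaa
Eef2, chr10:81176621-81176650, plus strand: aaggccgggcgttgacgtcagcggTCTCTT
Eif2s3x, chrX:94212632-94212661, minus strand: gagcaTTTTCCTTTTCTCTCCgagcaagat
Eif2s3y, chrY:1010585-1010614, plus strand: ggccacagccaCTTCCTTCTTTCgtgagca
The run was 15 bases long in Eif3f, 10 in Eif3l, 10 in Eef1a1, 16 in Eif2s3x and 12 in Eif2s3y. In Eef2 it was at least 6 bases long, since it reaches the end of the window. Start windows were at hand for 43 of the 54 factor genes. A run of at least 8 T or C within the 30 bases was present in 9 of the 43 genes (20.9%), against 13.01% of all 27025 genes with such a window and 13.7% of the 9032 tested genes with one. The 9 genes were Eef1a1, Eif2b2, Eif2b5, Eif2s3x, Eif2s3y, Eif3f, Eif3l, Eif4e and Eif4enif1. A gene was counted if any of its annotated starts matched, and the 43 genes had 55 windows. Eif4e matched only at a second start, where its run of 8 bases lies wholly before the start. The E-box CACGTG, which reads the same on both strands and can share only its leading C with a pyrimidine run of that length, lay within the 300 bases around the start in 11 of the 43 genes (25.6%), against 8.09% of all genes and 11.97% of the tested genes. Those 11 were Eef2, Eif1b, Eif3a, Eif3f, Eif3k, Eif4a1, Eif4e, Eif4g1, Eif4h, Eif5a and Eif5a2. Eif4e had the E-box only around its second start. These matches describe letters and are not shown to be sites.

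Total counts lay between 19826797 and 20061702 in the 6 libraries, so that 3 counts, the smallest level taken as detectable, came to about 0.15 CPM, the counts of a gene after all libraries are brought to the same size. All 13 erythroid markers were above 0 in every library and their summed FPKM (fragments scaled by transcript length and by the total count) lay between 223352 and 318432. Same-numbered control and cholesterol libraries deviated from their group means in the same direction across genes, with correlations of 0.79, 0.48 and 0.86 for replicates 1, 2 and 3. Between libraries of different numbers the correlation was 0.44 for control 1 with cholesterol 2, close to that of pair 2, 0.27 for control 2 with cholesterol 1, and between -0.83 and -0.44 for the others. Markers of other cells were unequal. All 9 granulocyte markers were above 0 in every library and summed to between 70.7 and 791 FPKM in control and between 38.3 and 350.2 with cholesterol. The sums of the 8 macrophage markers, all above 0 everywhere, ranged from 11.2 to 68.9 FPKM in control and from 8.51 to 35.2 with cholesterol, and those of the 4 early progenitor markers from 5.96 to 8.97 and from 3.32 to 4.36. Each of these 3 sums, the mast cell and basophil sum and the erythroid sum was lower with cholesterol in all 3 same-numbered pairs, with 11 of the 13 erythroid markers lower in each pair, and the granulocyte and macrophage sums were highest in replicate 3 of both groups. Of the 5 mast cell and basophil markers, Mcpt8, Prss34, Ms4a2 and Fcer1a were at 0 in at least 1 library, and the 5 summed to at most 16.2 FPKM. The 5 megakaryocyte markers summed to between 26.6 and 39.0 FPKM and the 5 hepatocyte markers to between 32.1 and 124.8. The libraries are of bulk RNA, where fewer cells of a type and less RNA per cell cannot be told apart.

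Across the factor genes, levels spanned several orders of magnitude, and the complexes, ordered by the sum of their levels, stood in the same order in both groups. On the FPKM scale, which is per length and so allows genes to be compared, 2 genes lay at 1000 or above as means of the 6 libraries, 24 between 100 and 1000, 22 between 10 and 100, 3 between 1 and 10, and 3 below 1. Eef1a1, the carrier of aminoacyl-tRNA, was highest at a mean of 5794 FPKM, and by itself it took between 0.869% and 1.23% of all counts in a library. Eef2, the translocase, followed at 1206 FPKM, Eif5a, which helps the ribosome through difficult peptide bonds, at 994, and Eef1g, a subunit of the exchange factor that reloads eEF1A, at 540.4. Below 1 FPKM were Eif4e3, a relative of the cap-binding protein, at 0.26, the oocyte-type cap-binding gene Eif4e1b at 0.16 and Eef1a2, the muscle and brain form of eEF1A, at 0.028. Eef1a2 had 2, 2 and 1 counts in control replicates 1 to 3 and 0, 0 and 2 with cholesterol, all at or under the detectable level. When the 54 genes were ordered by level, only 20 of the 53 neighbouring pairs kept their order in all 6 libraries.

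**Figure D1:**
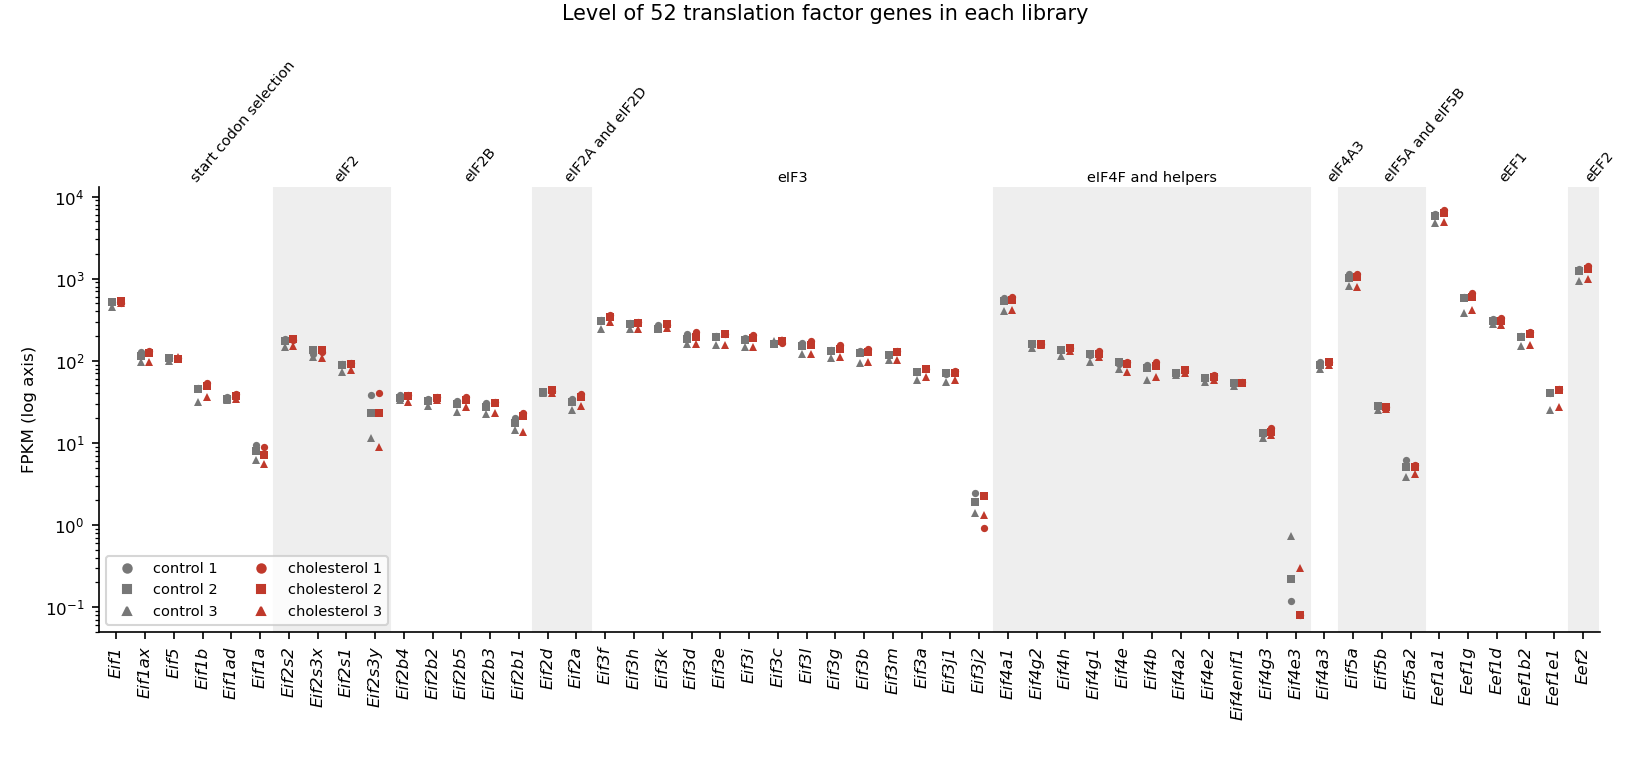
FPKM on a log axis for each of the 52 tested translation factor genes, grouped by complex, with grey points for control and red points for cholesterol libraries and a marker shape for each replicate number. Eef1a1, Eef2 and Eif5a stand highest, Eif3j2 and Eif4e3 lowest, the groups overlap for every gene but Eif4a2 once scaled by TMM, and the triangles of replicate 3 are most often the lowest points.

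To compare cholesterol with control, all 11277 genes that passed the filter were fitted together in edgeR, and p-values from its quasi-likelihood test were adjusted over all of them after Benjamini and Hochberg. With condition alone in the model, no factor gene passed an adjusted p of 0.05 in either direction, and the adjusted p of every one was 0.9998. The confidence intervals given for single genes below are 95% intervals of that model unless the block is named. In the background of all genes tested, 1 gene was called higher (0.00887%) and 0 were called lower. At an unadjusted p under 0.05 the count was 0 of 52 factor genes, against 297 of all genes (2.63%), and DESeq2 also called 0 factor genes, against 3 of all genes higher (0.0266%) and 28 lower (0.248%). With the replicate number as a block, which uses the pairing of same-numbered libraries, 1 of the 52 genes (1.92%) was called higher, against 1.65% of all genes, a share near the background, and 0 were called lower, against 5.2% of all genes. At an unadjusted p under 0.05 with the block, 8 of the 52 factor genes (15.4%) were higher, against 8.0% of all genes, and 2 (3.85%) were lower, against 11.6%.

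The signs of the fold changes leaned toward cholesterol. The log2 fold change of cholesterol over control was above 0 for 37 of the 52 genes (71.2%), against 52.1% of all genes, and its median was 0.034, against 0.006 over all genes. Scaled by total library size instead of TMM, the trimmed mean of M-values that sets libraries to a common scale, it was above 0 for 45 of the 52, with a median of 0.066 against 0.037 over all genes. Within same-numbered pairs and after TMM scaling, 18 of the 52 genes (34.6%) were higher with cholesterol in all 3 pairs, against 19.9% of all genes. Another 5 (9.62%) were lower in all 3, against 20.1%, and 29 were mixed. These counts depend on the scale. On FPKM further genes, such as Eef1a1, Eif2s1 and Eif4a1, were higher in all 3 pairs, and Eef1d, Eif4e and Eif5b were not lower in all 3. The counts over all genes were not made on that scale. The median difference in log2 CPM was 0.022 in pair 1, 0.067 in pair 2 and 0.003 in pair 3. The 3 cholesterol values lay above all 3 control values for 1 of the 52 genes, Eif4a2, against 3.71% of all genes, and below them for 0, against 4.28%. Genes of 1 machinery vary together and are not independent replicates, so these counts carry no test. With 1 library left out of the model without the block, which leaves a pair incomplete, the sign of the median changed in 2 of 6 cases. It was 0.116 without control replicate 1 or without cholesterol replicate 3, 0.014 without cholesterol replicate 2, -0.036 without control replicate 3 and -0.020 without cholesterol replicate 1, where 18 and 22 of the 52 genes were above 0 in the last 2 cases. By complex, the median with 1 library left out ran from -0.025 to 0.090 in start codon selection, from -0.065 to 0.083 in eIF2, from -0.041 to 0.14 in eIF3, from -0.016 to 0.19 in eIF2B and from -0.065 to 0.22 in eEF1. With the block and a whole pair left out, the median over the factor genes was 0.051, 0.019 and 0.048 without replicates 1, 2 and 3, with 41 of 52, 29 of 52 and 37 of 51 genes above 0. In the same order it was 0.038, 0.0011 and 0.060 in eIF3, 0.12, 0.039 and 0.090 in eIF2B and 0.062, 0.060 and 0.11 in eEF1, all above 0, whereas eIF2 stood at 0.00025, -0.021 and 0.014.

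The share of all counts taken by the 54 genes gives the summed size of these levels. It was 3.05%, 2.89% and 2.38% in control replicates 1 to 3 and 3.26%, 3.08% and 2.47% with cholesterol. The share was higher with cholesterol in each pair, but the lowest library of the cholesterol group lay below the highest 2 of the control group, so the groups overlapped. Summed over the 54 genes, the FPKM was higher with cholesterol by 6.87%, 6.77% and 3.02% in pairs 1, 2 and 3. Eef1a1 alone held 36.7%, 36.1% and 36.5% of the factor counts in control replicates 1 to 3 and 37.7%, 37.4% and 35.6% with cholesterol. Both sums therefore rest in large part on that gene and do not show a rise in every factor. The globins took 14.6%, 13.8% and 17.9% of the counts in control and 12.5%, 12.97% and 16.2% with cholesterol, so that share was lower with cholesterol in each pair; the part of the globin share, or of the erythroid, granulocyte, macrophage and progenitor markers, in the factor counts was not tested.

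**Figure D2:**
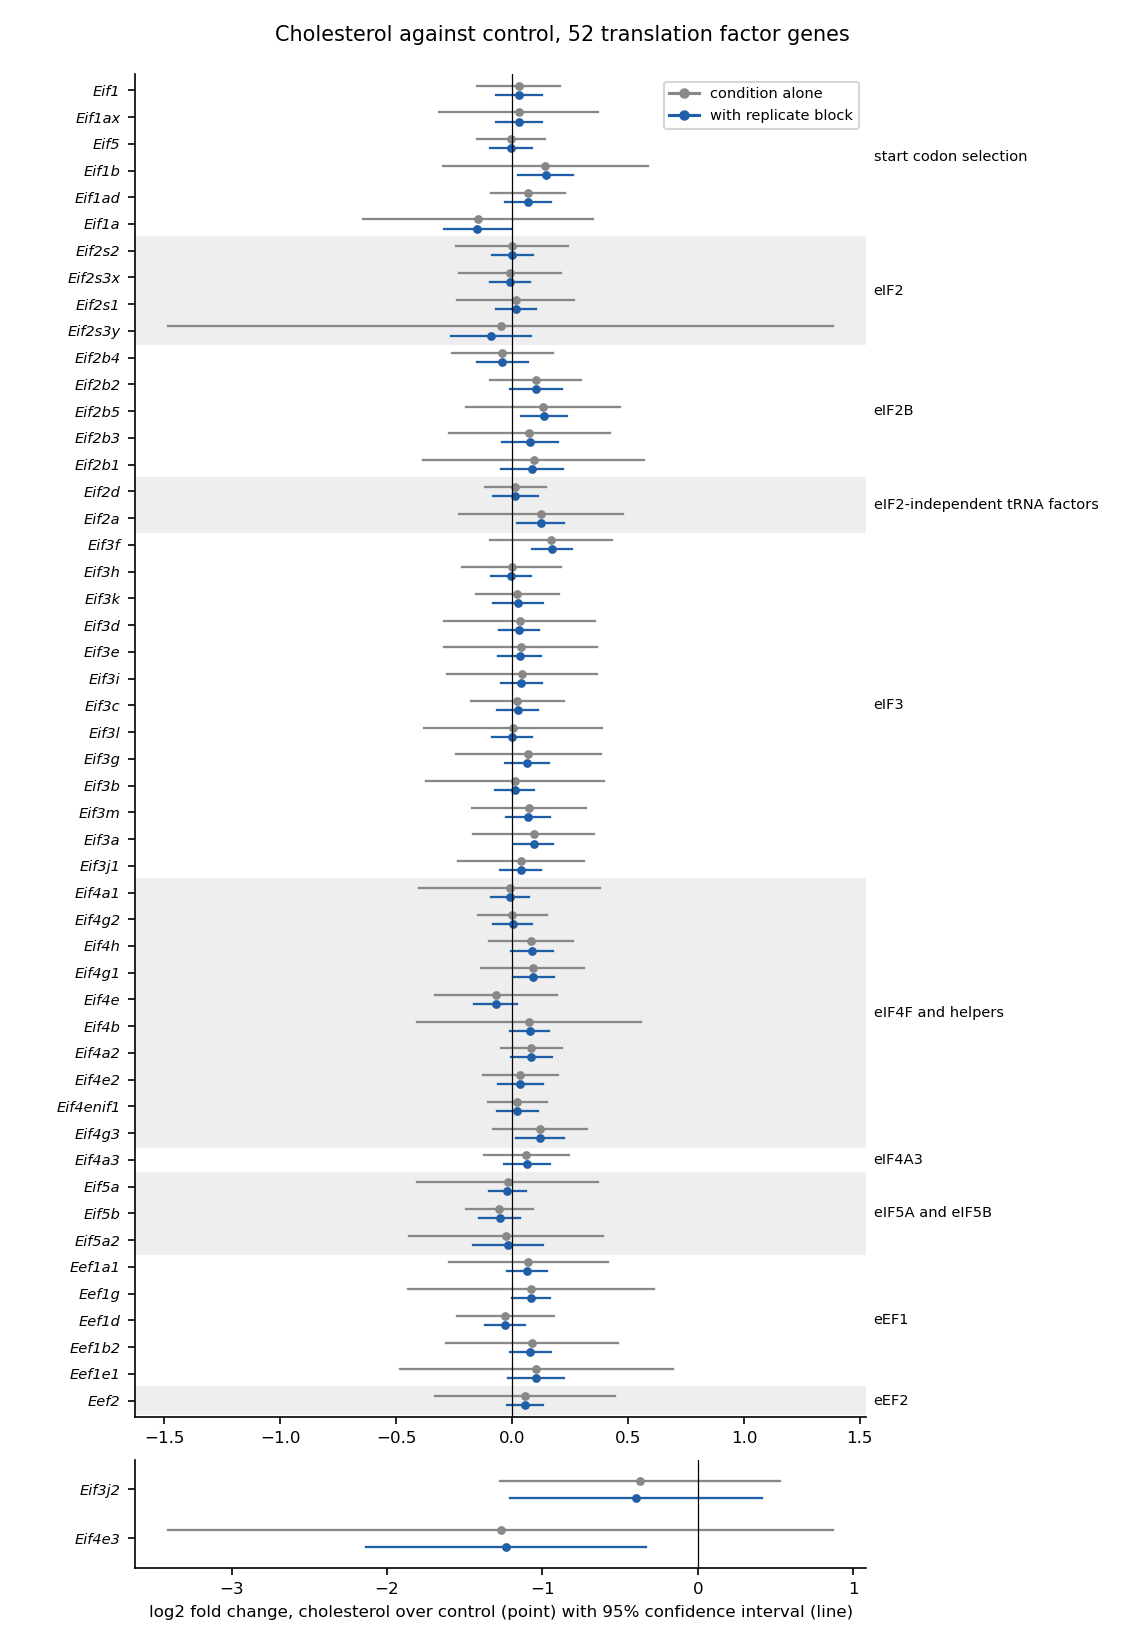
Log2 fold change of cholesterol over control (points) with its 95% confidence interval (lines) for the 52 tested genes, grey for condition alone and blue with the replicate block; Eif3j2 and Eif4e3 have an axis of their own. Every grey interval spans 0, and with the block the interval of Eif3f, from 0.09 to 0.26, is the farthest from 0 among the genes above 10 FPKM.

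The eIF3 complex is the largest initiation factor, a scaffold that holds the small subunit, the mRNA cap complex and the other factors together. Of its 14 genes, all tested, 12 had a log2 fold change above 0 and 2 below, with a median of 0.035. With the block 1 gene was called, and with condition alone 0. That gene was Eif3f (chr7:108934415-108941942), whose product belongs to the module of eIF3 that carries MPN domains.

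Eif3f stood at 315, 307 and 242 FPKM in control replicates 1 to 3 and at 357, 337 and 297 with cholesterol. Each cholesterol library lay above its same-numbered control, yet cholesterol replicate 3 lay below control replicates 1 and 2, so the groups overlapped. The log2 fold change was 0.17 with condition alone (95% confidence interval -0.09 to 0.43). With the block Eif3f rose by 0.17 (standard error 0.04, interval 0.09 to 0.26, adjusted p = 0.016), and the differences in log2 CPM within pairs 1, 2 and 3 were 0.13, 0.13 and 0.26. With the block DESeq2 gave an adjusted p of 0.022 and limma on log2(FPKM + 1) one of 0.11. Without replicate 1, 2 or 3 the adjusted p with the block was 0.057, 0.066 and 0.058, so the call needed all 3 pairs, while the log2 fold change was 0.20, 0.19 and 0.13. With condition alone it was 0.074 without control replicate 3, and between 0.12 and 0.25 without any other library.

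The other eIF3 subunits, like Eif3f, moved less than their libraries differed. Eif3a, the largest subunit and the backbone of the complex, stood at 73.4, 72.1 and 58.8 FPKM in control and at 79.3, 79.3 and 64.0 with cholesterol. It was higher in all 3 pairs, with a log2 fold change of 0.09 (interval -0.17 to 0.36) and an adjusted p of 0.20 with the block. With 1 library left out the log2 fold change of Eif3a ran from 0.014 without control replicate 3 to 0.18 without cholesterol replicate 3, and it was also over 1.5 times higher or lower than 0.09 without control replicate 1, cholesterol replicate 1 or cholesterol replicate 2. After TMM scaling Eif3j1, which encodes the loosely bound subunit eIF3j, was the remaining gene higher in all 3 pairs. It stood at 69.9, 70.3 and 55.7 FPKM in control and 74.6, 71.8 and 58.8 with cholesterol. On the FPKM scale Eif3b, Eif3c, Eif3d, Eif3g, Eif3i and Eif3m were also higher in all 3 pairs. After TMM scaling 4 of the 14 genes were higher with cholesterol in pair 3, against all 14 in pair 2 and 9 in pair 1. The median difference of the 14 genes in log2 CPM was 0.034 in pair 1, 0.096 in pair 2 and -0.019 in pair 3. In pair 3 the direction depended on the scale for Eif3b, Eif3d, Eif3g, Eif3i and Eif3m, which were lower in CPM and higher in FPKM.

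Although the products join in 1 complex, the mRNA levels of the subunits differed. Leaving out Eif3j2, which shares most of its sequence with Eif3j1, the mean of the 6 libraries ran from 309 FPKM for Eif3f through 273 for Eif3h and 261 for Eif3k to 71.1 for Eif3a and 66.8 for Eif3j1, a 4.62-fold range. Of the 12 neighbouring pairs in that order, 6 kept their order in all 6 libraries. Eif3f lay above Eif3h in 5 of the 6 libraries, Eif3h above Eif3k in 4 and Eif3d above Eif3e in 4, so these neighbours were not set apart. Eif3a and Eif3j1 held places 12 and 13 in each library, and Eif3g held place 9. Eif3c, a core subunit that binds eIF1 and eIF5, changed place most, between 4 and 8. It was lowest in neither replicate 3: its levels were 165, 158 and 176 FPKM in control and 166, 172 and 180.0 with cholesterol, so that replicate 3 was the highest of each group.

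**Figure D3:**
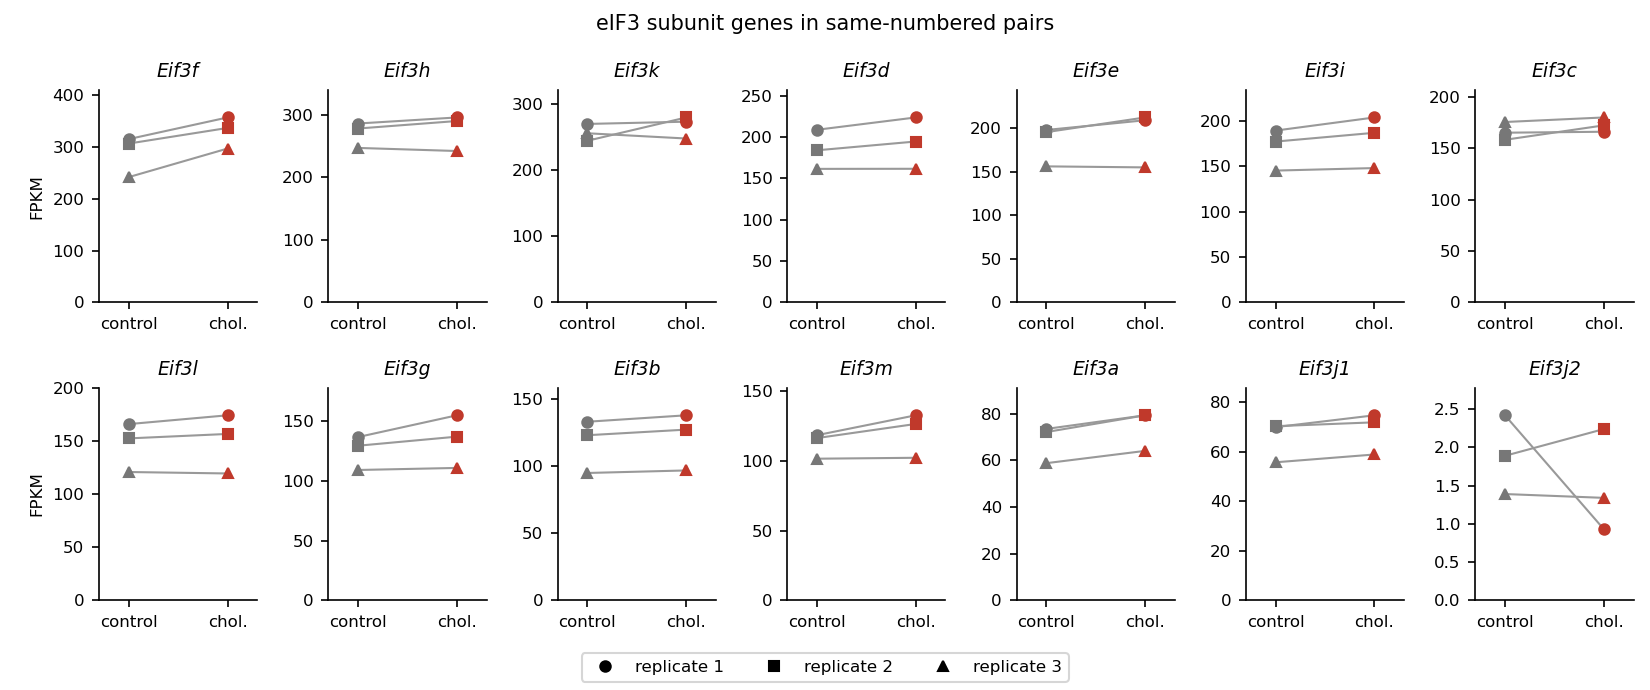
FPKM of the 14 eIF3 subunit genes, 1 panel for each gene with its own axis from 0, with a line joining the control and cholesterol library of the same replicate number. Eif3f and most other genes lie higher with cholesterol in all 3 pairs on this scale. Replicate 3 (triangles) is the lowest line in most panels, and Eif3c shows it as the highest.

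The genes of start codon selection showed no common direction. Their products, eIF1, eIF1A and eIF5, keep the scanning small subunit open until the start codon is met and then trigger GTP hydrolysis on eIF2. Of the 6 genes 4 had a log2 fold change above 0 and 2 below, with a median of 0.029, and 0 were called in either model. Eif1ad, a relative of eIF1A, had the smallest p of the group with condition alone, and Eif1b had it with the block. It stood at 36.2, 34.5 and 33.5 FPKM in control and at 39.5, 37.7 and 34.7 with cholesterol, with a log2 fold change of 0.07 (interval -0.09 to 0.23). Eif5, the GTPase activator of eIF2, stood at 109.04, 108 and 101 FPKM in control and 107, 106 and 109.97 with cholesterol. The log2 fold change was -0.0050 (interval -0.15 to 0.14), its control and cholesterol values were interleaved, and the sign of so small a value changed with the scaling.

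Eif1a and Eif1ax encode near-identical forms of eIF1A, and both had lower levels in replicate 3. Eif1a stood at 9.33, 7.92 and 6.24 FPKM in control and 8.91, 7.21 and 5.52 with cholesterol. It was lower with cholesterol in all 3 pairs, without passing the test (log2 fold change with the block -0.15, adjusted p = 0.24). Eif1b, a second eIF1 gene, was higher in all 3 pairs, at 46.3, 45.5 and 31.7 FPKM in control and 53.7, 49.3 and 36.4 with cholesterol, and it did not pass either (0.14 with the block, adjusted p = 0.15).

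The eIF2 genes were close to level between the groups. eIF2 is the trimer that binds the initiator tRNA, and phosphorylation of its alpha subunit is the common switch of the stress response on translation. Of the 4 genes, 1 had a log2 fold change above 0 and 3 below, with a median of -0.0043. Eif2s1, the alpha subunit, stood at 91.9, 89.1 and 73.8 FPKM in control and at 94.2, 92.5 and 76.4 with cholesterol. Its log2 fold change was 0.016 (interval -0.24 to 0.27), and its interval with the block ran from -0.070 to 0.10. The beta subunit gene Eif2s2 had levels of 182, 176 and 148 FPKM in control and 179.7, 186 and 151 with cholesterol. In both genes replicate 3 was lowest, and the treatment moved the level by less than the replicate number did.

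The gamma subunit of eIF2 has an X-linked gene, Eif2s3x, and a Y-linked gene, Eif2s3y, and of all factor genes Eif2s3y varied most by replicate number among those above 10 FPKM. Eif2s3y stood at 38.1, 22.8 and 11.4 FPKM in control replicates 1 to 3 and at 40.7, 23.0 and 9.02 with cholesterol. Eif2s3x stood at 119.9, 136 and 111 FPKM in control and at 128, 134 and 109 with cholesterol. The level of Eif2s3x was thus 3.15, 5.95 and 9.76 times that of Eif2s3y in control and 3.16, 5.84 and 12.1 times with cholesterol. Ddx3y, Kdm5d and Uty, further genes of the Y chromosome, had the same order of replicates in both groups. Ddx3y, for instance, stood at 8.38, 5.21 and 2.05 FPKM in control and at 8.38, 5.21 and 2.56 with cholesterol. The sex of the fetuses is not given in the labels. Between the groups Eif2s3y did not pass the test (log2 fold change with the block -0.091, interval -0.26 to 0.08). Of the sequence windows of Eif2s3x, 34.6% occur in another gene as well, and of those of Eif2s3y none. The deposited count was not whole in 2 libraries for Eif2s3x and in all 6 for Eif2s3y, so both levels are uncertain.

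eIF2B is the exchange factor that reloads eIF2 with GTP, and it is the complex that phosphorylated eIF2 blocks. Of its 5 genes, 4 had a log2 fold change above 0 and 1 below, with a median of 0.094, and 0 were called in either model. Eif2b5, the catalytic epsilon subunit, stood at 32.6, 29.5 and 23.8 FPKM in control and at 36.1, 33.0 and 27.2 with cholesterol. It was higher in all 3 pairs, yet the groups overlapped, and its log2 fold change was 0.13 (interval -0.20 to 0.47). It was 0.034 without control replicate 3, 0.050 without cholesterol replicate 1, 0.23 without cholesterol replicate 3 and 0.25 without control replicate 1. With the block it was 0.14 (interval 0.04 to 0.24) at an adjusted p of 0.098, and scaling by total library size brought that p to 0.046.

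Eif2b2, the beta subunit gene, stood at 34.0, 32.6 and 27.9 FPKM in control and at 35.9, 34.8 and 32.8 with cholesterol, and the log2 fold change was 0.10 (interval -0.09 to 0.30), with 0.040 without control replicate 3 and 0.17 without control replicate 1. The median of the 5 genes was 0.026 within pair 1, 0.16 within pair 2 and 0.040 within pair 3. By level the genes ran from Eif2b4 at 35.8 FPKM to Eif2b1 at 18.4, a 1.94-fold range, and 2 of the 4 neighbouring pairs kept their order in all 6 libraries.

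Eif2a and Eif2d encode factors that can bring tRNA to the small subunit without eIF2. Eif2a is unrelated to the alpha subunit of eIF2 despite its symbol. It stood at 34.6, 31.4 and 25.5 FPKM in control and at 38.9, 36.1 and 27.9 with cholesterol. It was higher in all 3 pairs, but its log2 fold change of 0.13 (interval -0.23 to 0.48) did not pass, nor did the 0.12 with the block (adjusted p = 0.15). With condition alone, the fold change was 0.029 without control replicate 3, 0.037 without cholesterol replicate 1, 0.23 without control replicate 1 and 0.24 without cholesterol replicate 3. Eif2d was among the steadiest of the factor genes. Its level lay between 40.2 and 43.4 FPKM in all 6 libraries, with a log2 fold change of 0.014 (interval -0.12 to 0.15).

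The cap-binding complex and its helpers held Eif4a2, the only factor gene whose groups did not overlap after TMM scaling. That is 1 of the 52 tested factor genes (1.92%), a share below the 3.71% of all genes. eIF4E binds the cap, eIF4G is the scaffold, eIF4A is the helicase that opens structure in the leader, and eIF4B and eIF4H stimulate the helicase. Of 12 genes 11 were tested, 8 had a log2 fold change above 0 and 3 below, with a median of 0.036, and 0 were called. In the pairs after TMM scaling, 6 were higher with cholesterol in all 3 and 2 lower in all 3. On the FPKM scale Eif4a1 and Eif4enif1 were also higher in all 3, and Eif4e was no longer lower in all 3.

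Eif4a2, the less abundant eIF4A gene in these cells, stood at 71.6, 70.4 and 67.5 FPKM in control and at 75.8, 77.7 and 71.5 with cholesterol. The lowest cholesterol value, 71.53, lay just under the highest control value, 71.63, on this scale, and just above it after TMM scaling. Its log2 fold change was 0.08 (interval -0.05 to 0.21), with an adjusted p of 0.29 with the block. Eif4a1 stood at 588, 539 and 409 FPKM in control and 590.04, 548 and 420.5 with cholesterol, a log2 fold change of -0.010 (interval -0.40 to 0.38) whose sign turned with total library size scaling.

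The level of Eif4a1 was 8.21, 7.65 and 6.06 times that of Eif4a2 in control and 7.78, 7.05 and 5.88 times with cholesterol. This ratio was lower with cholesterol in all 3 pairs, by 0.08 on the log2 scale on average against an SD of 0.04 over the pairs, and the groups overlapped. Its change between the group means was -0.21 without control replicate 3, -0.17 without cholesterol replicate 1 and -0.041 without control replicate 2. It turned to 0.010 without control replicate 1 and to 0.031 without cholesterol replicate 3.

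Among the cap-binding genes, Eif4e and Eif4e3 ran the other way from most factor genes, and neither passed the test. Eif4e stood at 92.1, 95.5 and 78.9 FPKM in control and at 95.9, 92.0 and 72.9 with cholesterol. After TMM scaling it was lower in all 3 pairs, with a log2 fold change of -0.068 (interval -0.33 to 0.20) and of -0.071 with the block (adjusted p = 0.41). Eif4e2, which encodes the repressive homologue 4EHP, stood at 61.6, 61.2 and 55.1 FPKM in control and at 66.3, 62.8 and 58.3 with cholesterol. The log2 ratio of Eif4e to Eif4e2 was lower with cholesterol in each pair, by -0.049, -0.090 and -0.20, and its groups overlapped. Eif4e3 was at the edge of detection, with 6.01, 11 and 38 counts in control and 4, 4 and 15 with cholesterol. Its counts were highest in replicate 3 of both groups, as the granulocyte and macrophage marker sums were, whose part in them was not tested. The log2 fold change of Eif4e3 with the block was -1.23 (interval -2.13 to -0.33, adjusted p = 0.097).

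Among the scaffolds, Eif4g1 stood at 118, 119.99 and 96.6 FPKM in control and at 131, 121 and 112 with cholesterol. Its log2 fold change was 0.090 (interval -0.13 to 0.31) and 0.092 with the block (adjusted p = 0.23), and the difference within pair 2 was 0.0037 in log2 CPM. With 1 library left out its log2 fold change ran from 0.014 without control replicate 3 and 0.039 without cholesterol replicate 1 to 0.14 without control replicate 1. Eif4g3, a second full-length scaffold, stood at 12.96, 13.1 and 11.3 FPKM in control and at 15.2, 13.6 and 12.6 with cholesterol, higher in all 3 pairs (0.12 with the block, adjusted p = 0.17). Eif4g2, which lacks the cap-binding end, had a log2 fold change of 0.0013. Eif4b had one of the wider replicate ranges, at 89.7, 81.4 and 57.8 FPKM in control and 95.99, 87.6 and 62.6 with cholesterol. Eif4enif1, which carries eIF4E into the nucleus, stayed between 49.6 and 54.5 FPKM in all libraries.

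Eif4a3, a helicase of the exon junction complex and not of eIF4F, stood at 95.5, 89.8 and 79.2 FPKM in control and at 95.9, 97.3 and 88.7 with cholesterol, with a log2 fold change of 0.061 (interval -0.12 to 0.25), which was 0.0077 without control replicate 3 and 0.13 without control replicate 1.

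All 3 genes of eIF5A and eIF5B had a log2 fold change below 0, with a median of -0.027, and 0 were called. The median was 0.0040 with total library size scaling, 0.10 without control replicate 1 and 0.058 without cholesterol replicate 3, so its direction turned. eIF5B joins the large subunit to the small. Eif5b stood at 28.3, 27.9 and 25.2 FPKM in control and at 27.1, 27.3 and 25.8 with cholesterol. After TMM scaling it was lower in all 3 pairs, with a log2 fold change of -0.054 (interval -0.20 to 0.09). Eif5a stood at 1141, 1024 and 806 FPKM in control and at 1141, 1053 and 798 with cholesterol. Its log2 fold change was -0.019 (interval -0.41 to 0.37), and the sign turned with total library size scaling. Eif5a2, its paralog, was low at 3.81 to 6.16 FPKM, and Eif5a exceeded it by between 185 and 212 times in every library.

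Among the tested elongation factor genes, Eef1e1 and Eef1g varied most by replicate number, Eef1d varied least, and none was called. Of the 5 eEF1 genes tested, 4 had a log2 fold change above 0 and 1 below, with a median of 0.083. After TMM scaling 3 were higher in all 3 pairs. These were Eef1g, Eef1b2, which differed by only 0.00065 in log2 CPM in pair 3, and Eef1e1, grouped here by its symbol. Eef1a1 (chr9:78478453-78481724) stood at 6189.5, 5774 and 4799 FPKM in control and at 6795, 6352 and 4853 with cholesterol. Replicate 3 of either group lay below every other library, and the log2 fold change was 0.070 (interval -0.27 to 0.41), with 0.065 and an adjusted p of 0.42 with the block.

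Eef1b2, an exchange subunit that reloads eEF1A with GTP, had the smallest p of its complex with condition alone, and Eef1g had it with the block. Eef1b2 had levels of 199, 192 and 150.5 FPKM in control and 224, 209 and 154 with cholesterol, and a log2 fold change of 0.085 (interval -0.29 to 0.46). Eef1g stood at 596, 582 and 380.3 FPKM in control and at 672, 598 and 414 with cholesterol, and Eef1e1, a subunit of the aminoacyl-tRNA synthetase complex, at 40.7, 40.2 and 25.4 and at 45.1, 44.6 and 27.1. Both were higher in all 3 pairs and neither passed the test. After TMM scaling Eef1d, a further exchange subunit, was lower in all 3 pairs, with differences of -0.004, -0.018 and -0.069 in log2 CPM. On the FPKM scale it was higher in pair 1, at 323.6, 306.8 and 278.9 in control and 334.8, 303.7 and 272.9 with cholesterol.

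Eef2 stood at 1315, 1247 and 944 FPKM in control and at 1423, 1309 and 996 with cholesterol. It was higher in all 3 pairs, with a log2 fold change of 0.057 (interval -0.33 to 0.45) and of 0.056 with the block (interval -0.02 to 0.13, adjusted p = 0.46). With condition alone and 1 library left out, the log2 fold change ran from -0.060 to 0.18, so its direction turned.

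The replicate number separated the factor genes far more than cholesterol did. Replicate 3 had the lowest level of its group, in both groups, for 42 of the 52 genes (80.8%), against 33.2% of all genes, and the highest in both for 2, Eif3c and Eif4e3, against 32.6% of all genes. The median difference in log2 CPM between replicate 3 and the mean of replicates 1 and 2 was -0.24 in control and -0.26 with cholesterol, against -0.0017 and -0.0017 over all genes. By complex the control medians ran from -0.14 in eIF4F and helpers to -0.38 for Eef2, and 11 of 14 eIF3 genes, 4 of 4 eIF2 genes and 5 of 5 eEF1 genes tested had replicate 3 lowest in both groups. Eef1e1 lay 0.61 lower in control and 0.68 lower with cholesterol, Eef1g 0.57 and 0.56 lower, and Eif4b 0.51 and 0.50 lower. What the replicate number stands for is not given in the sources used here. The granulocyte and macrophage markers and the globin share were highest, and the Y-linked genes lowest, in the same replicate 3 libraries, and their part in the factor levels was not tested.

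**Figure D4:**
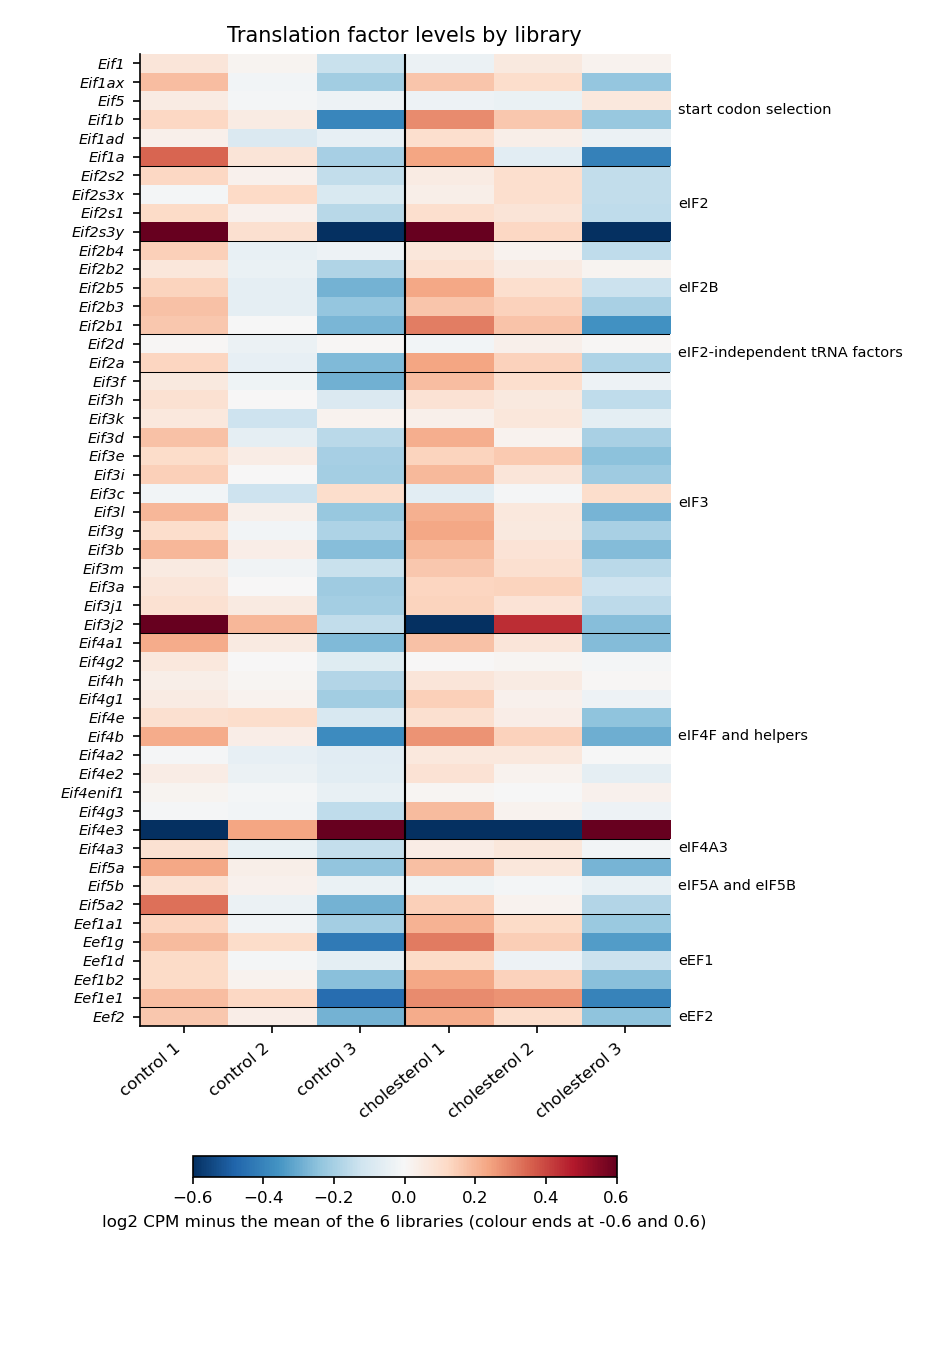
Log2 CPM of each tested factor gene minus its mean over the 6 libraries, in colour from blue (lower) to red (higher), with genes in rows grouped by complex and libraries in columns. The replicate 3 columns of both groups are blue for most genes, and Eif3c and Eif4e3 are the genes where replicate 3 is the highest of both groups.

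**Figure D5:**
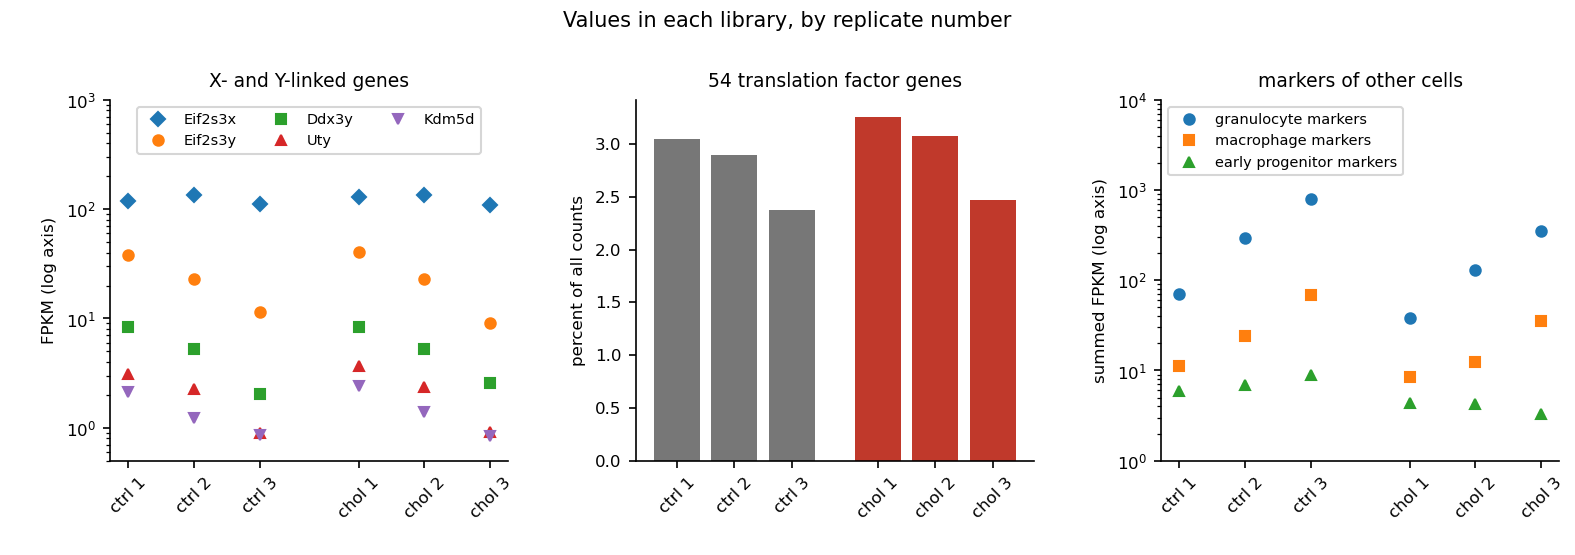
Values in each library of X- and Y-linked genes (FPKM, log axis, left), of the share of counts of the 54 factor genes (percent, bars from 0, middle) and of summed markers of granulocytes, macrophages and early progenitors (FPKM, log axis, right). Eif2s3y and the other Y-linked genes are lowest, the factor share is lowest at 2.38% and 2.47%, and the granulocyte markers are highest in replicate 3 of both groups.

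Other genes of the translation pathway were held in 5 further lists, and none of them was called in either model. The kinases, phosphatases and inhibitors had 5 of 16 genes above 0 and a median of -0.023. At an unadjusted p under 0.05 with the block, 1 of the 16 genes was higher (6.25%, background 8.0%) and 1 was lower (6.25%, background 11.6%), shares below the background. In the other 4 lists 0 genes passed it, and with condition alone 0 genes of the 5 lists did. Eif2ak2, the kinase PKR that answers double-stranded RNA, was higher in all 3 pairs at means of 29.1 and 32.8 FPKM (log2 fold change with the block 0.14, interval with the block 0.05 to 0.23, adjusted p = 0.062), and with condition alone its interval ran from -0.59 to 0.87. Eef2k, which phosphorylates and slows eEF2, was lower in all 3 pairs at means of 37.0 and 34.9 FPKM (log2 fold change with the block -0.14, interval with the block -0.23 to -0.049, adjusted p = 0.062), and with condition alone its interval ran from -0.31 to 0.026. Eif2ak1, the heme-sensing kinase, had the highest level of the eIF2 kinases at 199 FPKM in control and 199.6 with cholesterol, against 3.24 and 2.91 for Eif2ak3 and 2.69 and 2.52 for Eif2ak4. The mTOR-controlled inhibitor gene Eif4ebp1 stood at 114 and 119 FPKM.

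The cap and poly(A) partners had 7 of 8 genes above 0 with a median of 0.016, Pabpc1, the main poly(A) binding protein, standing at 870.3 and 926 FPKM. Termination and recycling had 1 of 3 tested genes above 0 with a median of -0.012, the modifying enzymes that make hypusine, diphthamide and lysine methylation on the factors 6 of 12 with a median of 0.011, and the mitochondrial factors 5 of 6 with a median of 0.020.

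The sequences of some factor genes limit what 50-base reads can assign. For 13 of the 54 genes at least 10% of the 50-base windows of their transcripts also occur in another gene, and 24 genes had a deposited count that was not whole in at least 1 library. The share was 91.8% for Eif3j2, nearly all of it shared with Eif3j1, 44.2% for Eef1g, 39.4% for Eef1a1, 36.9% for Eif3j1 and 28.4% for Eif4a1, and it was 0 for Eif3f, Eif3a, Eif2b5 and Eif2b2. Levels of the genes with a high share can depend on how the authors' counting split such reads. Eif3j2, with the highest share, had 119, 92.1 and 68.6 expected counts in control and 45.1, 109.3 and 65.3 with cholesterol, and its pairs differed by -1.44, 0.24 and -0.11 in log2 CPM.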

How the data were processed

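Polyadenylated RNA of 3 control and 3 cholesterol samples was read as single-end 50-base reads. The authors deposited expected counts per gene, which are estimated counts that need not be whole (27.9% to 29.5% of values were not), and a table of normalised values that the authors deposited without a unit and that match FPKM. The submitters' processing notes name HISAT2 2.0.4, Bowtie2 2.2.5, RSEM 1.2.12, DESeq2 1.4.5 and GRCm38.p6, without roles. Counts were rounded and tested with edgeR 4.0.16 in R 4.3.3 (TMM, filterByExpr with 10 counts in enough samples and 15 in total, robust quasi-likelihood test, threshold 0.05, Benjamini-Hochberg over 11277 genes), once with condition alone and once with the replicate number blocked. CPM values are TMM-scaled and FPKM values are as deposited. Replicate numbers come from the labels and were taken to pair the libraries, because all 3 same-number correlations of deviations exceeded 0.1. Control 1 with cholesterol 2 (0.44) and control 2 with cholesterol 1 (0.27) also exceeded it. That bar therefore cannot tell how replicates 1 and 2 pair. Alternatives used DESeq2 1.42.0 and limma 3.58.1 on log2(FPKM + 1) and log2(FPKM + 0.1). No 2 libraries were copies. With 3 samples a group, an exact two-sided permutation test cannot go below 0.1 and was not run. The members, complexes and lists were chosen with earlier results of these data known. Full statistics are given for any gene called in either model, for the gene with the smallest p in each complex, and for 11 central factors. The method was tested on simulated data. Symbols of all 54 genes matched RefSeq, and shared windows came from GENCODE M21 transcripts.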

Additional observations from a re-analysis of the deposited data

How the results depend on the processing

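With condition alone, 0 factor genes were called under every alternative run, including each library left out in turn (range 0 to 0). With the replicate block the count was 1 in the planned fit, with DESeq2, with TMM after leaving out the globin genes, with no filter on low counts and with at least 10 counts in every sample, and 2 scaled by total library size; it was 0 with limma and without any 1 replicate number. Of all genes tested in the same fits, the share called higher was 0.364% with DESeq2, 1.58% without the globin genes, 2.23% with no filter, 1.52% with at least 10 counts, 2.46% by total library size, 0.124% with limma and 1.03%, 0.583% and 1.89% without replicates 1, 2 and 3. The settings that join the block with another choice, apart from a left-out replicate number, were added after seeing the data. The median log2 fold change of eIF4F and helpers, 0.036, was 0.067 with total library size, 0.074 and 0.075 with limma on log2(FPKM + 1) and log2(FPKM + 0.1), 0.066 with the block and total library size, 0.074 with the block and limma, and between 0.0015 and 0.10 with 1 library left out. Scaling by total library size moved the median of all tested genes from 0.0064 to 0.037, and with it the medians of start codon selection from 0.029 to 0.059, of eIF3 from 0.035 to 0.066, of eIF2 from -0.0043 to 0.026 and of eIF5A and eIF5B from -0.027 to 0.0040. Single-gene alternatives were followed for the 18 genes given with full statistics, and 8 of these changed sign. With 1 library left out, log2 fold changes ran from -0.059 to 0.094 for Eif2s1, -0.014 to 0.22 for Eef1b2, -0.060 to 0.18 for Eef2, -0.019 to 0.19 for Eef1a1, -0.13 to 0.031 for Eif4e, -0.13 to 0.11 for Eif4a1, -0.13 to 0.11 for Eif5a and -0.034 to 0.023 for Eif5, and without a change of sign from 0.035 to 0.11 for Eif1ad and -0.086 to -0.017 for Eif5b. Total library size gave 0.020 for Eif4a1, 0.012 for Eif5a and 0.024 for Eif5, and with the block 0.022, 0.010 and 0.025. Limma gave 0.023, 0.0086 and 0.025 with a pseudocount of 1, with and without the block, and 0.023, 0.0086 and 0.026 with 0.1. With the block and without replicate 1, Eif4a1 was at 0.015 and Eif5 at 0.035, and without replicate 2 Eif2s1 was at -0.0011 and Eif5 at 0.0057. Beyond the values given here, the block changed the call of no factor gene other than Eif3f and, by total library size, Eif2b5. The cause of these shifts was not tested. Genes near 3 counts, such as Eef1a2, lie beyond what these 6 libraries resolve.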
